A study of Mus musculus with 80 samples.

Results

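Car10, Megf11, Gm5622, Phex, Clcn1, Slc22a13b-ps and Pcmtd1 are 7 of the 22556 genes listed in the gene expression tables of this series. They were picked from the same measurements as genes with large changes in chromatin-associated RNA when the RNA methyltransferase METTL3 was removed. Their values in the METTL3 degron line are therefore a description and were not tested. The transgene lines and the lines with other degraded proteins were used to ask what else moves these genes. All 7 passed the filter on low values, a mean of at least 1 CPM (counts per M reads, where M is the SI mega) over the libraries of a table, in all 6 tables.

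Chromatin-associated RNA was sequenced (ChrRNA-seq) from mouse embryonic stem (mES) cells of a Cast x 129S background in 80 libraries, with 8.58 to 34.39 M reads per library. In every line the native promoter of Xist on a single X was exchanged for a doxycycline (Dox) inducible promoter, on the Cast X in the METTL3 and ZFC3H1 lines and on the 129S X, with a Bgl array on the Xist RNA, in the YTHDC1 and ZCCHC8 lines. The degraded protein carried an FKBP tag, at the N terminus in METTL3 clones G4 and H1 and at the C terminus in METTL3 clones C3 and H5, and dTAG-13 (dTAG) removed it. Each clone was sequenced untreated, with dTAG for 26 h, with Dox for 24 h, and with dTAG given 2 h before Dox and kept for the 24 h of Dox. The METTL3 line had 4 clones in 16 libraries, ZCCHC8 (clones Z4F and Z12H) and ZFC3H1 (clones 8H and 11A) had 2 clones each in 8 libraries, and YTHDC1 (clones Y9F and Y12H) had 2 clones sequenced in 2 experiments, 16 libraries in all. Libraries without and with Dox come from the same clones. In the lines with 2 clones the p-values therefore measure the spread of the dTAG effect between clones only in part.

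The transgene lines derive from METTL3 clone H5 with GFP-METTL3 added at Rosa26, as the wild type protein (WT) or as the catalytic mutant D395A, while dTAG removes the endogenous protein. WT XX (clone WT_P2B3) and D395A XX (clone D395A_1F) kept both X chromosomes. WT XiO (clone WT_1A) and D395A XiO (clone D395A_9F) are the labels' XiO cells, which per the study had lost the 129 X and kept the X with inducible Xist. Each of these lines is 1 clone sequenced in 2 experiments, so their p-values measure only the spread between libraries of the same clone, and a difference between WT and D395A cannot be told apart from a difference between clones. Cells grew on fibroblast feeders, and in bulk RNA fewer cells that transcribe a gene and less RNA per cell cannot be told apart.

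METTL3 methylates adenosines in RNA (m6A) within a complex with METTL14, WTAP, VIRMA, RBM15, CBLL1 and ZC3H13. In the nucleus m6A is read by YTHDC1, which is known for roles in splicing, RNA export and the turnover of chromatin-associated RNA. ZCCHC8 is part of NEXT, the adaptor that hands short or unprocessed nuclear RNA to the RNA exosome, and ZFC3H1 is part of PAXT, the adaptor for longer polyadenylated nuclear RNA.

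The genes have unrelated products. Car10 encodes a carbonic anhydrase-related secreted glycoprotein that binds neurexins. Megf11 encodes a receptor with many EGF-like repeats that acts in the spacing of retinal neurons. Gm5622 is a predicted gene. Phex, on the X chromosome, encodes an endopeptidase-like membrane protein of phosphate balance in bone. Clcn1 encodes the chloride channel of skeletal muscle. Slc22a13b-ps is by its name a pseudogene of the organic anion transporter family. Pcmtd1 encodes a protein with an isoaspartate methyltransferase domain.

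On mm10, with starts counted from 1, the transcribed spans were chr11:93099290-93601751 (Car10, + strand), chr9:64385626-64709205 (Megf11, + strand), chr14:51552790-51662953 (Gm5622, + strand), chrX:157162075-157415286 (Phex, - strand), chr6:42286685-42314656 (Clcn1, + strand), chr9:119220491-119231692 (Slc22a13b-ps, - strand) and chr1:7088920-7173628 (Pcmtd1, + strand). Reads were counted over the whole span, introns included. The spans of Car10 (502 kb), Megf11 (324 kb), Phex (253 kb) and Gm5622 (110 kb) lay at percentiles 98.6, 96.7, 95.1 and 86.2 of the 13367 genes tested in the METTL3 line, where the median was 26.1 kb. Pcmtd1 spanned 84.7 kb (percentile 81.3), Clcn1 28.0 kb (52.3) and Slc22a13b-ps 11.2 kb (24.7).

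The 150 bases before the annotated start are shown for a gene that rose, the predicted gene, the X-linked gene and the chloride channel gene, to set starts of genes that rose beside starts of genes that fell. They come from RefSeq on mm10 and are written 5′ to 3′ on the strand of the gene, and capitals mark matches, on either strand, to the TATA box TATAAA, the promoter box CCAAT, the Sp1 box GGGCGG, the m6A motif GGACT or the polyadenylation signal AATAAA.
Car10, chr11:93099140-93099289: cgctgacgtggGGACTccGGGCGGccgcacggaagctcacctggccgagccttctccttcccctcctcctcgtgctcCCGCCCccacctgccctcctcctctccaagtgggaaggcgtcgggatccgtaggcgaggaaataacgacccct
Gm5622, chr14:51552640-51552789: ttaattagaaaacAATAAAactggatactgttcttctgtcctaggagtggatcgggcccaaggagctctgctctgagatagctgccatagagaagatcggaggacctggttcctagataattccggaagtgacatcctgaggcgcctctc
Phex, chrX:157415287-157415436: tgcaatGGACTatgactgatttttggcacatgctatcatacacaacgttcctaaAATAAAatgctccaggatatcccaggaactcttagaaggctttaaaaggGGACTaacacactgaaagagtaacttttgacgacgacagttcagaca
Clcn1, chr6:42286535-42286684: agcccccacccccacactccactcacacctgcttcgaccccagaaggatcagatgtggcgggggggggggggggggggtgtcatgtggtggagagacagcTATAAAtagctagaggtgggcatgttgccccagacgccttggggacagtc

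Of these windows the Clcn1 window alone held TATAAA, the core of a TATA box, which 7.57% of 32851 promoter windows of this length held. GGGCGG, the box bound by Sp1, was in the Car10 window and in 28.6% of all windows, and CCAAT, in 24.5% of all windows, was in none of the 4. GGACT was in the Car10 and Phex windows and in 25.5% of all windows, and AATAAA was in the Gm5622 and Phex windows and in 10.3% of all windows. Another annotated start of Car10, with the window chr11:93098216-93098365, is not shown. That window held GGGCGG and no GGACT. All windows lie before the start, so their GGACT and AATAAA matches are outside the transcript made from that start. In the longest annotated transcript GGACT, a common form of the m6A motif, occurred 7 times in Car10 (2.10 per kb), 11 times in Megf11 (1.65), 9 times in Pcmtd1 (1.72), 3 times in Slc22a13b-ps (2.06), 5 times in Clcn1 (1.41) and 3 times in Phex (0.479), against a median of 1.00 per kb over 19175 transcripts. Gm5622 held 0 in its 1581 bases.

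Levels differed widely between the genes. Per kb of span and in the untreated libraries of the METTL3 line, Pcmtd1 stood at 6.65 CPM per kb (percentile 94.5 of the genes tested), Clcn1 at 1.42 (64.7) and Slc22a13b-ps at 0.800 (48.4). The long genes were low, with Phex at 0.0645 CPM per kb, Megf11 at 0.0617, Gm5622 at 0.0342 and Car10 at 0.00888 (percentile 1.05). Gm5622 had the fewest reads, with 5 in its lowest library and under 10 in 2 libraries.

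In the METTL3 degron line the order of changes on the log2(CPM + 1) scale placed Car10 second of 13367 genes among those that were higher with dTAG (log2 change 2.01), behind Plec (2.12), and Megf11 (1.76) and Gm5622 (1.74) in places 5 and 6, after Rpph1 (1.95) and E130012A19Rik (1.77) and before Filip1l (1.74). Clcn1 (-1.50), Slc22a13b-ps (-1.40) and Phex (-1.38) held the first 3 places among the genes that were lower, ahead of Srgap3 (-1.38). Pcmtd1 (-0.49) was in place 323, between Synpr and Pdcd4, so by size it was not among the largest changes. These values chose the genes. The median of all genes tested moved by 0.225 in this line and by -0.015 after median-ratio scaling, under which Phex was at -1.61 and Pcmtd1 at -0.76.

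Car10 stood at 3.96, 4.62, 6.13 and 3.14 CPM in untreated G4, H1, C3 and H5 cells and at 23.3, 20.4, 31.3 and 21.5 CPM with dTAG. With Dox the same clones held 3.95, 3.09, 6.05 and 3.79 CPM, and with dTAG and Dox 20.5, 20.6, 8.74 and 21.3 CPM. Every clone was higher with dTAG, and the C3 library with dTAG and Dox lay far below the others. That library also had the largest share of reads on genes shorter than 3000 bases, 4.572% where the 16 libraries started at 0.497%, and the part of this in the value was not tested. Without it the log2 change of Car10 was 2.22 in place of 2.01.

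Megf11 split by clone. It went from 28.9 to 167 CPM in G4 and from 15.9 to 124 CPM in H1, but from 18.6 to 31.1 CPM in C3 and from 16.4 to 51.1 CPM in H5. With Dox the steps were 45.2 to 158 and 51.9 to 104 CPM in G4 and H1, and 11.4 to 26.7 and 9.25 to 55.2 CPM in C3 and H5. The clones with the N-terminal tag thus reached higher levels than those with the C-terminal tag in every dTAG library, and the ranges without dTAG (9.25 to 51.9 CPM) and with dTAG (26.7 to 167 CPM) overlapped. Gm5622 went from 3.90, 4.80, 3.42 and 2.93 CPM in untreated G4, H1, C3 and H5 cells to 20.8, 24.1, 14.1 and 11.4 CPM with dTAG. Its lowest library with dTAG was again C3 with Dox, at 4.22 CPM beside 3.14 CPM without dTAG.

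Among the genes that were lower, Phex was at 19.2, 15.5, 16.4 and 14.2 CPM in untreated G4, H1, C3 and H5 cells and at 6.16, 5.17, 5.77 and 4.26 CPM with dTAG. With Dox, which induces silencing of the Cast copy only, it was at 13.8, 10.4, 11.9 and 11.6 CPM without dTAG and at 5.06, 4.32, 4.57 and 3.08 CPM with it. Each clone was lower with dTAG in both Dox states, by 1.45 on the log2 scale without Dox and by 1.31 with Dox, and the groups did not overlap. The gene next to Phex on the same strand, Sms, a polyamine synthase gene 28.7 kb upstream, was at -0.43.

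Clcn1 was at 28.4 to 49.0 CPM (median 36.8, n = 8) without dTAG and at 9.83 to 19.6 CPM (median 12.4, n = 8) with it, so the mean was 2.95-fold lower and the groups did not overlap. Its log2 change was -1.74 ± 0.18 (SE) without Dox and -1.27 ± 0.18 with Dox, and in H5 it went from 45.7 to 10.2 CPM. Slc22a13b-ps was at 7.48 to 11.7 CPM (median 8.38, n = 8) without dTAG and at 1.12 to 6.96 CPM (median 2.47, n = 8) with it. Its C3 libraries (5.22 and 6.96 CPM with dTAG) were the highest of the treated libraries, and its H5 libraries (1.12 and 1.74 CPM) were among the lowest. Pcmtd1, the most abundant of the 7, was lower in 8 of 8 pairs, at 466 to 812 CPM (median 556) without dTAG and 318 to 536 CPM (median 401) with it, with overlapping ranges.

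**Figure D1:**
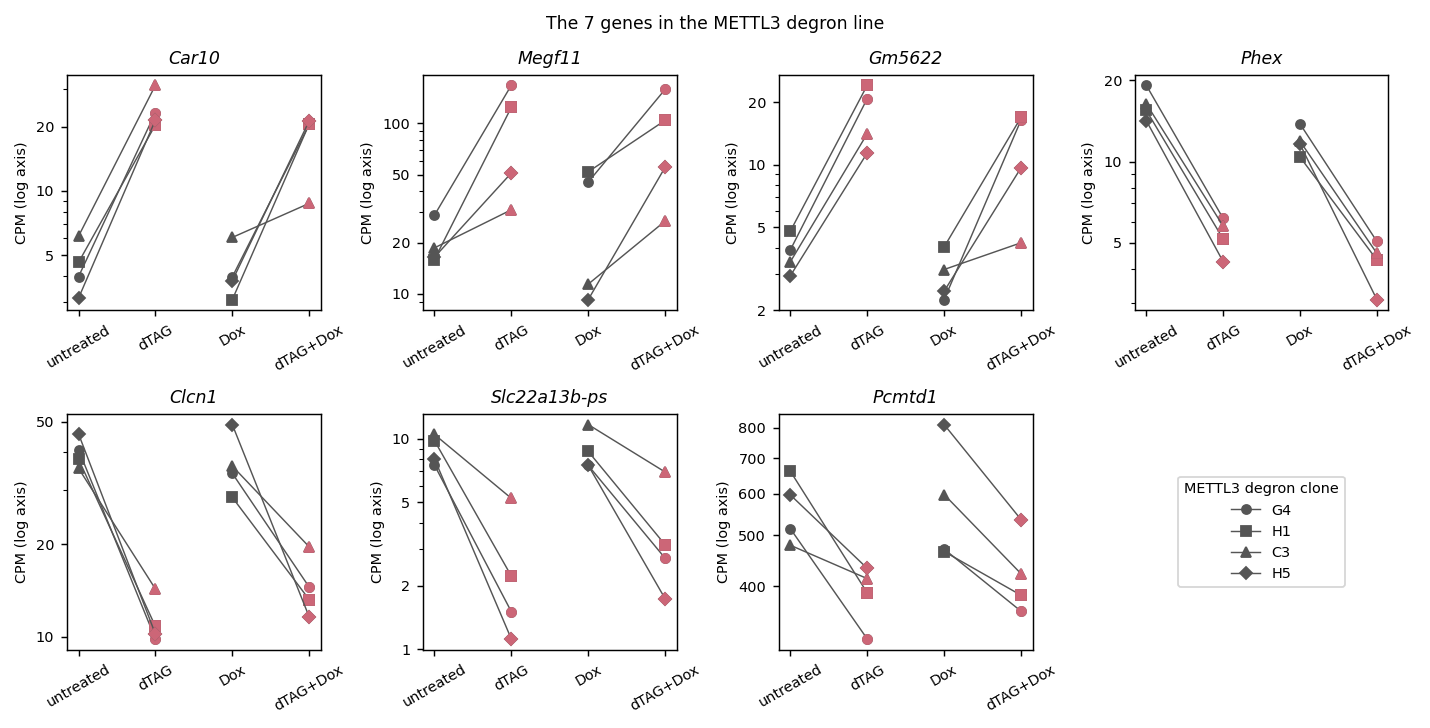
CPM of each gene (log axis) in the 16 METTL3 degron libraries, with 1 marker shape per clone and lines joining the libraries of a clone without and with dTAG in the same Dox state; red marks dTAG. Car10, Megf11 and Gm5622 are higher and Phex, Clcn1, Slc22a13b-ps and Pcmtd1 lower with dTAG in every pair, and the C3 library with dTAG and Dox stands below the other treated libraries for Car10 at 8.74 CPM.

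With a WT transgene dTAG changed none of the 7 genes past the threshold. In WT XX cells 0 of 7 had an adjusted p under 0.05 in limma, and of all 13364 genes tested 0% were called (44 had an unadjusted p under 0.05, and edgeR on the recovered reads called 0). In WT XiO cells it was 0 of 7, with 0% of 13448 genes called (18 with an unadjusted p under 0.05, and 0 by edgeR). Log2 changes are means of the arms without and with Dox, and adjusted p-values come from limma over all genes of a table, in the transgene lines without a block unless said. The 2 experiments of a transgene line are paired, so the fit without a block is conservative. Its 44 and 18 genes with an unadjusted p under 0.05 are fewer than chance alone would give. With the experiment as a replicate block 0 of 7 genes were again called in both WT lines, where 0% of all genes were.

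Car10 was at 5.06 and 13.9 CPM in untreated WT XX cells and at 8.23 and 12.8 CPM with dTAG, and at 5.27 and 9.44 CPM with Dox beside 6.99 and 8.53 CPM with dTAG and Dox. In WT XiO cells the untreated 14.9 and 8.98 CPM stood beside 14.8 and 9.12 CPM with dTAG, and the 10.4 and 6.97 CPM with Dox beside 10.8 and 7.30 CPM. The groups overlapped in both lines. The log2 change was 0.18 in WT XX (95% interval -0.51 to 0.87) and 0.03 in WT XiO (-0.57 to 0.63). In WT XX cells the change in the first experiment was upward (5.06 to 8.23 CPM) and in the second downward (13.9 to 12.8 CPM), and without the first experiment it was -0.12.

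For the others the intervals in WT XX cells were -0.20 to 0.91 for Megf11, -0.17 to 0.86 for Gm5622, -0.73 to 0.23 for Phex, -0.94 to 0.45 for Clcn1, -0.32 to 0.31 for Slc22a13b-ps and -0.18 to 0.05 for Pcmtd1. In WT XiO cells the interval of Clcn1 was -1.16 to 0.94, the widest of the 7. Its experiments stood apart, with 52.6 to 58.8 CPM in the first and 16.7 to 23.3 CPM in the second whatever the treatment. In WT XX cells Phex, Clcn1 and Pcmtd1 were lower with dTAG in 4 of 4 pairs, Gm5622 was higher in 4 of 4, Megf11 in 3 of 4 (from 23.2 to 45.2 CPM in the widest), Slc22a13b-ps in 3 of 4 and Car10 in 2 of 4. In WT XiO cells Phex and Clcn1 were lower in 3 of 4 pairs, Car10, Megf11, Gm5622 and Slc22a13b-ps were higher in 3 of 4 and Pcmtd1 in 2 of 4. None of these differences passed the threshold.

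With the D395A transgene the changes were there. In D395A XX cells 7 of 7 genes were called, where 17.7% of all genes were, and in D395A XiO cells 6 of 7, where 5.85% of all genes were. The direction was that of the METTL3 line for every gene in both. With the experiment as a replicate block 7 of 7 were called in both lines, where 49.2% of all genes were called in XX and 50.1% in XiO cells. With either D395A experiment left out the log2 changes kept their sign, for example 3.04 and 3.69 for Car10 in D395A XX. Such a fit leaves a single library in each D395A group and takes its spread from the WT libraries. It therefore cannot test whether a call rests on a single experiment.

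Car10 rose the most. In D395A XX cells it went from 4.50 to 46.8 CPM and from 3.67 to 35.3 CPM (with Dox) in the first experiment, and from 5.81 to 92.1 CPM and from 3.94 to 59.3 CPM in the second. In D395A XiO cells the steps were 6.07 to 104 and 5.85 to 100 CPM in the first experiment and 4.77 to 63.3 and 5.43 to 52.1 CPM in the second. No library with dTAG lay near those without. The log2 change was 3.37 ± 0.32 (SE, adjusted p = 1.49e-04) in XX and 3.58 ± 0.27 (adjusted p = 5.30e-04) in XiO cells, and the means went from 4.48 ± 0.953 to 58.4 ± 24.5 CPM (SD, n = 4) in XX and from 5.53 ± 0.570 to 80.0 ± 26.2 CPM in XiO cells. In H5, the parent clone, Car10 went from 3.14 to 21.5 CPM without Dox and from 3.79 to 21.3 CPM with it, values from another table that was processed separately.

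Megf11 stood at 31.5 to 48.5 CPM without dTAG and 123 to 185 CPM with it in D395A XX, and at 30.1 to 37.6 and 105 to 146 CPM in D395A XiO. These treated levels were above the 51.1 and 55.2 CPM of the parent clone H5, whose levels without dTAG were lower as well. The H5 values are from another table that was processed separately. The log2 changes were 2.07 (adjusted p = 4.83e-04) and 1.84 (adjusted p = 0.00184). Gm5622 went from 2.19 to 14.7, 2.37 to 8.30, 3.23 to 21.8 and 2.35 to 13.4 CPM in D395A XX, and from 1.39 to 10.1, 1.05 to 6.68, 1.51 to 8.53 and 0.742 to 5.16 CPM in D395A XiO. It rose by 2.08 (adjusted p = 2.99e-04) and 1.97 (adjusted p = 5.30e-04) on the log2 scale, from a lower start in the XiO cells.

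Phex was at 10.3, 7.24, 5.55 and 4.45 CPM without dTAG in D395A XX cells and at 4.45, 2.96, 3.35 and 2.48 CPM with it. In D395A XiO cells it went from 6.18, 6.85, 9.51 and 7.95 CPM to 2.76, 2.86, 3.53 and 4.18 CPM. The groups met at 4.45 CPM in XX cells and did not overlap in XiO cells. It was lower in 4 of 4 pairs of each line, by a log2 change of -0.84 (adjusted p = 0.023) and -0.99 (adjusted p = 0.0111). In the arm without Dox alone Phex was at -0.82 (adjusted p = 0.15) in XX and -1.07 (adjusted p = 0.0854) in XiO cells, and in the arm with Dox at -0.85 (adjusted p = 0.175) and -0.91 (adjusted p = 0.186).

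Clcn1 went from 14.0 to 19.8 CPM down to 4.17 to 5.85 CPM in D395A XX (log2 change -1.53, adjusted p = 0.0074) and from 16.5 to 20.9 CPM down to 6.18 to 10.5 CPM in D395A XiO (-1.15 ± 0.48, adjusted p = 0.201). The groups of the XiO value did not overlap, and with the experiment as a replicate block it passed (-1.15, adjusted p = 2.26e-06). Slc22a13b-ps fell from 3.49, 6.88, 5.06 and 7.16 CPM to 1.57, 3.07, 2.00 and 3.37 CPM in D395A XX (-0.92, adjusted p = 0.00178) and from 2.34 to 4.91 CPM down to 0.921 to 1.75 CPM in D395A XiO (-0.97, adjusted p = 0.0291). Pcmtd1 fell from 432 to 450 CPM to 288 to 328 CPM in D395A XX (-0.53 ± 0.05, adjusted p = 1.59e-04) and from 677 to 818 CPM to 510 to 583 CPM in D395A XiO (-0.45, adjusted p = 0.0198).

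**Figure D2:**
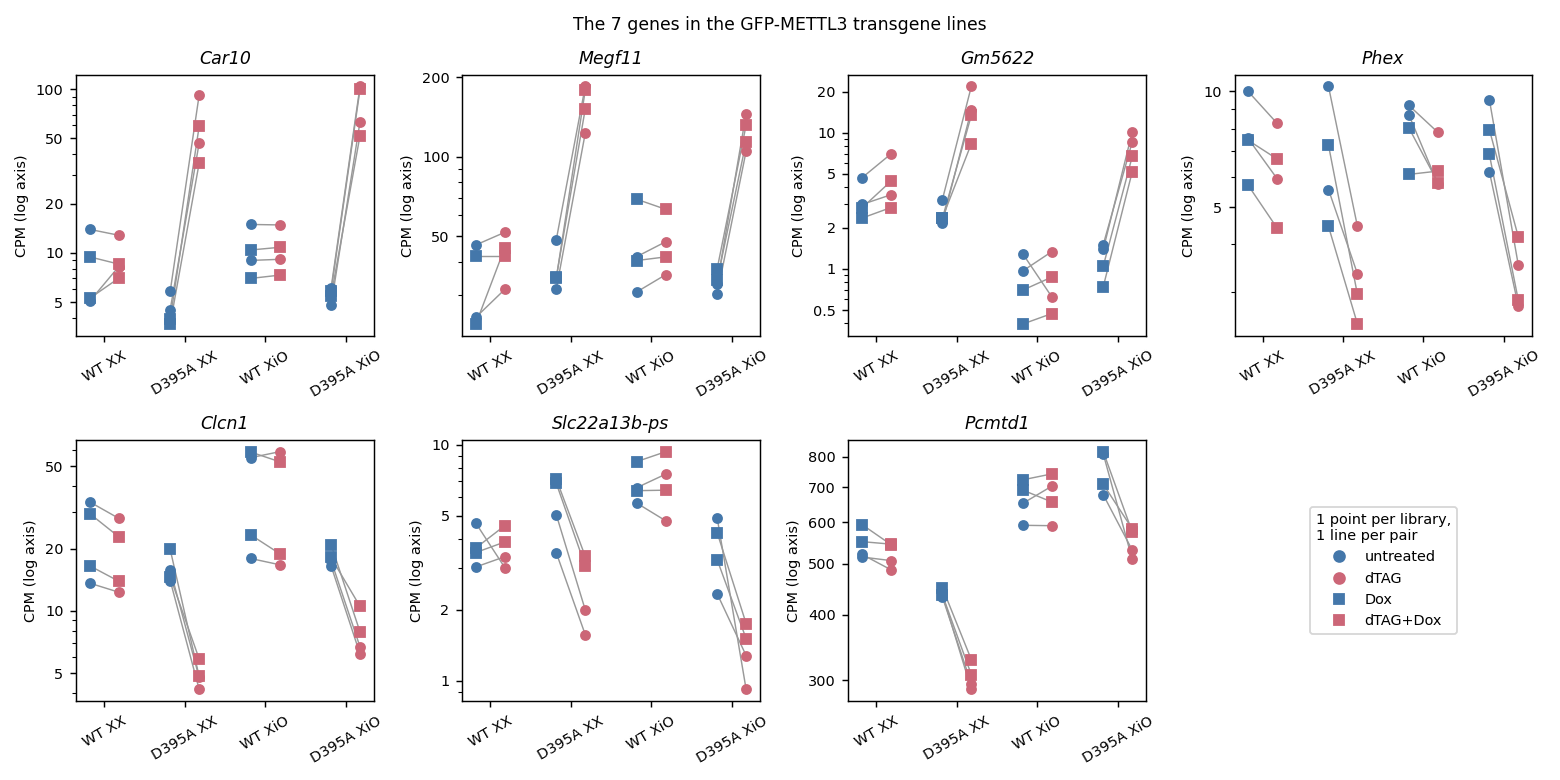
CPM of each gene (log axis) in the GFP-METTL3 lines, with blue points without and red points with dTAG, circles without and squares with Dox, and a line for each pair of libraries of the same experiment and Dox state. Pairs with the WT transgene run from 5.06 to 13.9 CPM without dTAG to 6.99 to 12.8 CPM with it for Car10 in WT XX, with the widest rise of Megf11 there at 23.2 to 45.2 CPM, and all pairs of both D395A lines move as in the METTL3 line; for Car10 the D395A XX pairs start at 3.67 to 5.81 CPM and end at 35.3 to 92.1 CPM.

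The difference itself, the dTAG effect with D395A minus that with WT, was past the threshold for 5 of 7 genes in XX cells, where 2.63% of all genes were called: Car10 3.19 (adjusted p = 0.00719), Gm5622 1.73 (0.0228), Megf11 1.71 (0.0324), Slc22a13b-ps -0.92 (0.0409) and Pcmtd1 -0.46 (0.0105). The difference for Phex was -0.59 (95% interval -1.27 to 0.09, adjusted p = 0.393) and that for Clcn1 -1.28 (-2.26 to -0.30, adjusted p = 0.163). In XiO cells Car10 (3.55, adjusted p = 0.0154) and Gm5622 (1.98, adjusted p = 0.0154) passed, 2 of 7, where 0.0297% of all genes (4 of 13448) were called. Megf11 was at 1.76 (adjusted p = 0.0622), Slc22a13b-ps at -0.99 (0.266) and Pcmtd1 at -0.47 (0.205). With the experiment as a replicate block 7 of 7 differences passed in XX cells, where 28.2% of all genes were called, with Phex at an adjusted p of 0.00739 and Clcn1 at 2.39e-05. In XiO cells the block gave 7 of 7 as well, where 28.7% of all genes were called, with adjusted p-values of 1.46e-06 for Megf11, 0.0032 for Phex, 0.000229 for Clcn1, 0.00323 for Slc22a13b-ps and 0.000884 for Pcmtd1. Leaving out an experiment in the fit without a block leaves a single library in each group of that line, so it cannot test whether a call rests on a single experiment. Every difference kept its sign, from 2.86 to 3.51 for Car10 and from -1.10 to -0.73 for Slc22a13b-ps in XX cells. In XiO cells the differences were 3.23 to 3.86 for Car10 and 1.77 to 2.18 for Gm5622. Whether XX and XiO cells differ in these effects was not tested, since they are in separate tables. Beside these changes the summed level of 7 neural markers went from 152 to 200 CPM to 215 to 301 CPM with dTAG in D395A XX and from 167 to 189 CPM to 186 to 259 CPM in D395A XiO, with Sox1 listed at 0 in all. Of the 4 neural markers tested 0 rose and 1 (Pax6) fell in D395A XX, and 0 were called in D395A XiO. Without and with dTAG the neural sums were 110 to 240 and 127 to 227 CPM in WT XX. In WT XiO they were 119 to 165 and 123 to 180 CPM. The summed stem cell markers went from 1528 to 1742 CPM to 1299 to 1416 CPM in D395A XX, where Zfp42 fell and the other 6 tested did not pass. In D395A XiO they went from 1382 to 2189 CPM to 1332 to 1604 CPM. They were at 1275 to 1919 and 1456 to 1977 CPM in WT XX. In WT XiO they were at 788 to 1002 and 910 to 1034 CPM, so the XiO clones differed also without dTAG. Endoderm markers summed to 16 to 21.7 CPM and 22.4 to 34.7 CPM with dTAG in D395A XX, where Dab2 rose. In WT XX they summed to 22.9 to 32.4 CPM and 23.8 to 29.9 CPM with dTAG. The part of these markers in the values was not tested.

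YTHDC1 loss moved a part of the genes in the direction of METTL3 loss and others not. In the table shared with ZCCHC8, 5 of 7 genes were called, where 32.9% of all genes were, and in the separate experiment 5 of 7, where 31.6% of all genes were. Both experiments used the same clones, Y9F and Y12H.

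Car10 went from 7.96 to 24.7 CPM in Y9F and from 7.23 to 20.4 CPM in Y12H, and with Dox from 9.29 to 23.7 and from 8.89 to 25.5 CPM. In the separate experiment it went from 13.3 to 38.0 and 11.8 to 35.3 CPM, and with Dox from 12.5 to 37.9 and 11.1 to 42.8 CPM. Every treated library lay above every untreated one, with a log2 change of 1.40 ± 0.09 (adjusted p = 2.18e-08) and 1.58 ± 0.07 (adjusted p = 2.43e-12). Gm5622 went from 2.04, 1.74, 1.86 and 1.78 CPM to 4.76, 4.26, 4.27 and 4.18 CPM (0.91, adjusted p = 1.36e-04), and in the separate experiment from 1.72, 1.73, 1.37 and 0.933 CPM to 7.52, 5.74, 6.60 and 4.95 CPM (1.56, adjusted p = 3.92e-10).

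Phex fell in 4 of 4 pairs of both experiments, from 8.86, 6.66, 11.3 and 9.10 CPM to 7.83, 4.53, 8.83 and 5.39 CPM (-0.40, adjusted p = 0.00111) and from 8.45, 7.10, 10.4 and 8.65 CPM to 5.06, 3.28, 4.36 and 3.46 CPM (-0.94, adjusted p = 3.35e-07). The groups overlapped in the first experiment and not in the second. Megf11, which was higher with METTL3 loss, was slightly lower, at -0.32 (adjusted p = 0.0126) and -0.21 (adjusted p = 0.0239), with 35.6 to 48.6 CPM without dTAG and 31.8 to 35.9 CPM with it in the shared table. Clcn1, among the largest falls with METTL3 loss, was at 32.4 to 36.9 CPM without dTAG and 29.0 to 37.5 CPM with it (-0.07, 95% interval -0.18 to 0.05, adjusted p = 0.371). In the separate experiment it passed with a small change (-0.22, adjusted p = 0.0238), which was -0.34 or -0.10 with a clone left out. Slc22a13b-ps passed in the shared table (-0.28, adjusted p = 0.0139) and not in the separate one (-0.14, adjusted p = 0.331). Pcmtd1 was at 0.08 (95% interval -0.01 to 0.17, adjusted p = 0.142) and 0.06 (-0.04 to 0.16, adjusted p = 0.343). Leaving out a YTHDC1 clone of the shared table leaves a single library in each YTHDC1 group. It therefore cannot test whether a call rests on a single clone. Megf11 was at -0.20 without Y9F, Phex was at -0.31 without Y12H, and Slc22a13b-ps ranged from -0.37 to -0.18. Neural marker sums went from 114 to 127 CPM to 148 to 186 CPM in the shared table and from 134 to 144 CPM to 176 to 194 CPM in the separate one. Of the 4 neural markers tested, Map2 and Neurod1 rose in both and the others did not pass. The part of these markers in the values was not tested.

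ZCCHC8 loss moved Phex the other way. Phex was at 13 and 12.3 CPM in untreated Z4F and Z12H cells and at 36 and 37.9 CPM with dTAG, and at 7.24 and 9.85 CPM with Dox beside 23.4 and 24.8 CPM with dTAG and Dox. It rose in 4 of 4 pairs with no overlap, by 1.44 ± 0.08 on the log2 scale (adjusted p = 4.89e-10), where it was lower with METTL3 loss and fell with YTHDC1 loss. In all 6 of 7 genes were called, where 53.5% of all genes were, so a call is common in this comparison. Besides Phex and Car10 they moved little: Megf11 -0.43 (adjusted p = 9.20e-04), Slc22a13b-ps -0.30 (adjusted p = 0.00541), Pcmtd1 0.20 (adjusted p = 6.86e-04) and Clcn1 -0.14 (adjusted p = 0.0414). Car10 rose from 9.55, 6.79, 8.42 and 9.70 CPM to 15.8, 12.2, 14.5 and 13.3 CPM (0.64, adjusted p = 2.65e-05). Gm5622 was higher in Z4F (1.29 to 2.66 CPM, and 1.60 to 2.24 CPM with Dox) and lower in Z12H (2.90 to 1.80 and 2.35 to 1.83 CPM), for a log2 change of 0.07 (adjusted p = 0.717). It was 0.50 without Z12H and -0.36 without Z4F, so the clones moved in opposite ways. With a ZCCHC8 clone left out Clcn1 ranged from -0.18 to -0.10 and Slc22a13b-ps from -0.34 to -0.25. Such a fit leaves a single library in each ZCCHC8 group, so it cannot test whether a call rests on a single clone.

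The dTAG effects of ZCCHC8 and YTHDC1, compared in the table they share by a contrast added after the values were seen, differed for 3 of 7 genes, where 43.9% of all genes were called. The ZCCHC8 effect was 1.84 higher for Phex (adjusted p = 3.38e-09), 0.76 lower for Car10 (log2 difference -0.76, adjusted p = 2.32e-04) and 0.84 lower for Gm5622 (-0.84, adjusted p = 0.00279). With a clone left out the difference for Gm5622 ranged from -1.27 to -0.42. In the ZCCHC8 line the summed level of 6 genes of the 2-cell-like state went from 10.8 to 24.1 CPM to 42.7 to 94.9 CPM with dTAG, and all 6 passed the test upward. In the YTHDC1 libraries of the same table the sums were 11.9 to 19.1 CPM and 8.36 to 15.6 CPM, and the part of these cells in the changes was not tested.

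ZFC3H1 loss called 0 of 7 genes in limma, where 9.9% of all genes were called (1341 of 13544, 3392 with an unadjusted p under 0.05), and 0 of 7 with edgeR. Phex came nearest, from 5.07, 5.82, 7.35 and 6.35 CPM to 8.23, 10.0, 8.56 and 7.39 CPM. It was higher in 4 of 4 pairs and the groups did not overlap, but the log2 change of 0.42 (95% interval 0.12 to 0.72) had an adjusted p of 0.0805. Car10 was at 0.30 (95% interval 0.00 to 0.59, adjusted p = 0.197), higher in 4 of 4 pairs. Clone 11A is, per the study, informative for alleles in a proximal part of the X that leaves Phex out, and over the 72 other X-linked genes that start within 10 Mb of Phex its median share of reads from the X with inducible Xist was 0 to 0.003, beside 0.481 in untreated 8H cells. The clones differed also without dTAG: Megf11 with Dox was at 21.0 CPM in 8H and 39.7 CPM in 11A, and Slc22a13b-ps with Dox at 3.29 CPM in 8H and 9.34 CPM in 11A.

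**Figure D3:**
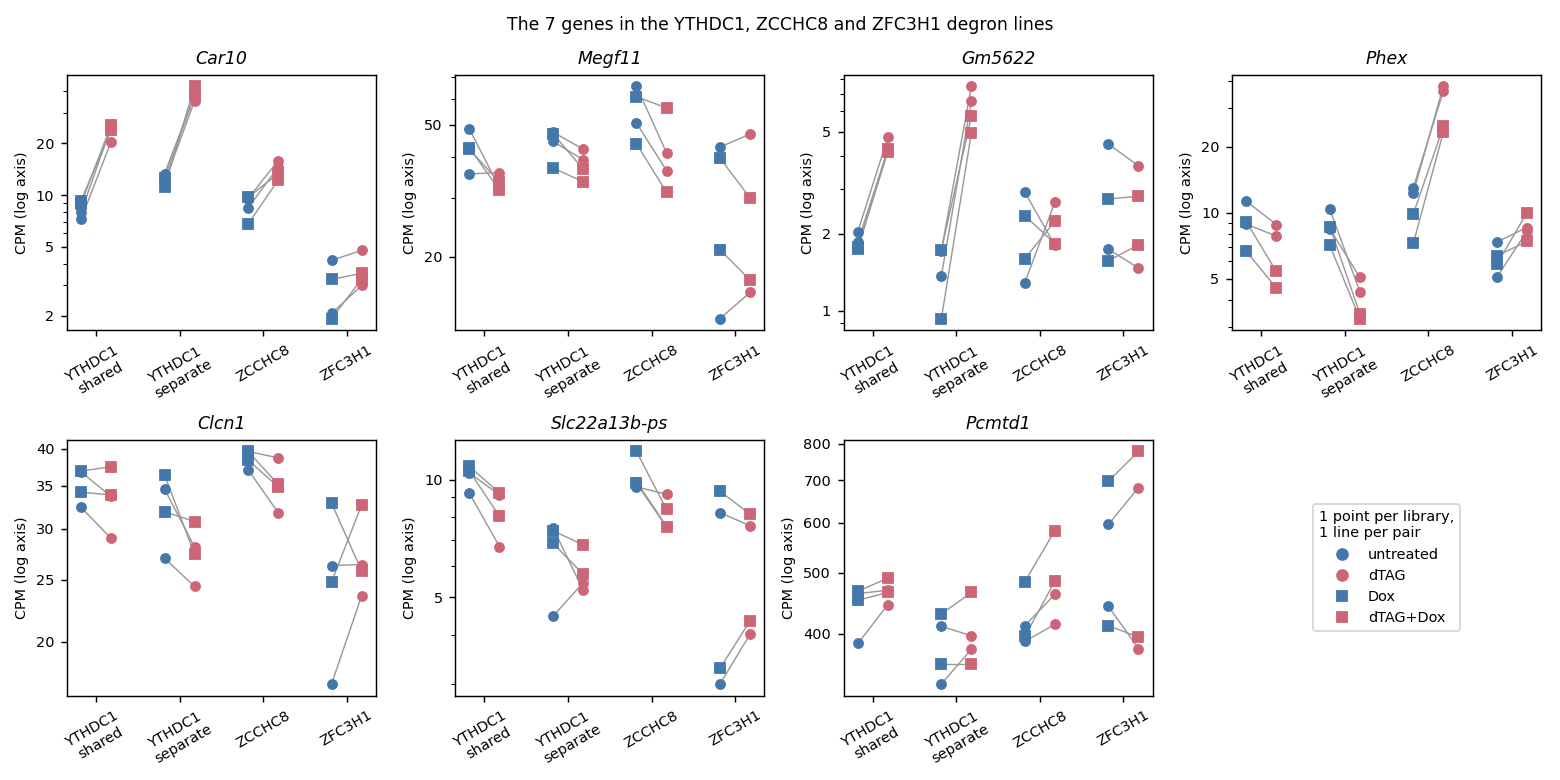
CPM of each gene (log axis) in the YTHDC1, ZCCHC8 and ZFC3H1 degron lines, with points and lines as in the plot of the transgene lines and the YTHDC1 experiments apart. Phex is lower with dTAG in the YTHDC1 line and higher in the ZCCHC8 line (23.4 to 37.9 CPM with dTAG), and Clcn1 in the ZCCHC8 line changes by -0.14 on the log2 scale.

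**Figure D4:**
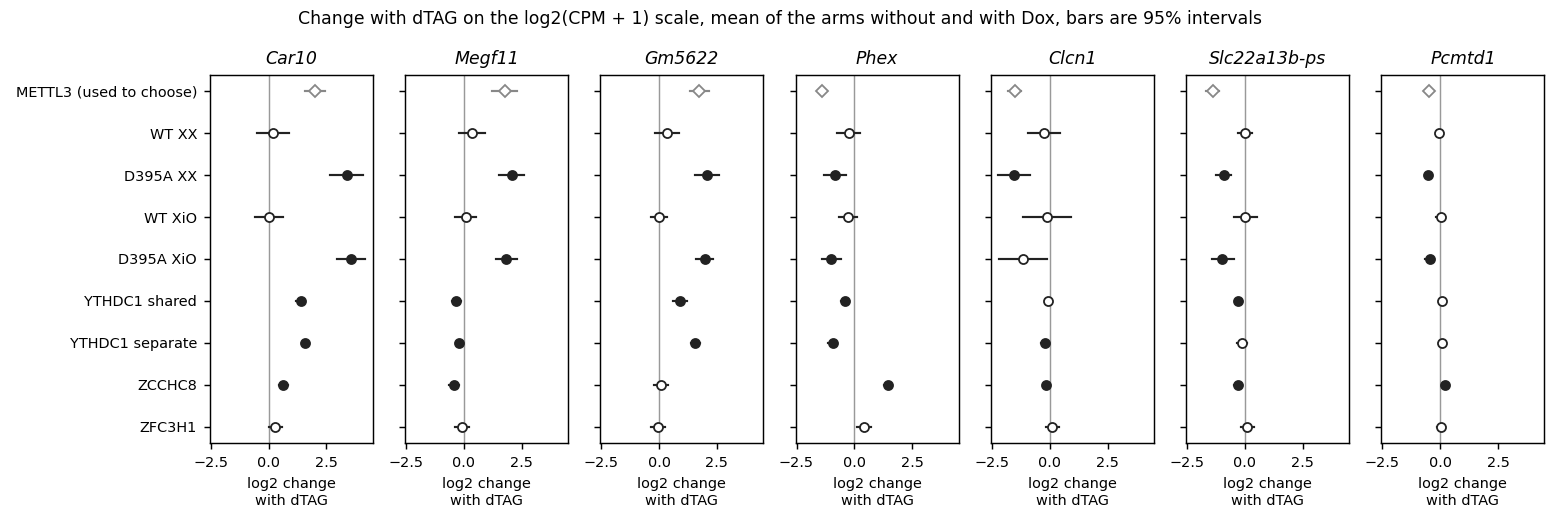
Log2 change with dTAG for each gene (mean of the arms without and with Dox, log2(CPM + 1) scale, bars are 95% intervals) in each line; filled points have an adjusted p under 0.05, and the METTL3 line, drawn as diamonds, was used to choose the genes and was not tested. Both D395A lines lie on the side of the METTL3 line for every gene, no point of the WT lines is filled, and ZCCHC8 lies at 1.44 for Phex, on the opposite side.

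The X-linked position of Phex allowed its allelic ratio, the share of reads from the X with inducible Xist, to be read in the METTL3, XX transgene and ZFC3H1 tables. In untreated METTL3 cells it was 0.398, 0.425, 0.513 and 0.301 in G4, H1, C3 and H5, and with dTAG alone 0.316, 0.343, 0.347 and 0.326, so it was lower in 3 of 4 clones while the median X-linked gene was at 0.451 to 0.461 and 0.430 to 0.453. With dTAG alone it also went from 0.419 to 0.241 and from 0.481 to 0.388 in D395A XX cells, where the median gene was at 0.470 to 0.474 and 0.471 to 0.472, and from 0.397 to 0.386 and from 0.451 to 0.419 in WT XX cells. These differences without Dox were not tested. In the METTL3 line it was, with Dox, 0.253, 0.321, 0.312 and 0.323, and with dTAG and Dox 0.197, 0.185, 0.0806 and 0.424. In 3 of 4 clones Phex lay lower on the silenced X with dTAG and Dox than with Dox alone, and in H5 it lay higher, for a mean difference of -0.0806 with no test. In D395A XX cells it went from 0.258 and 0.318 with Dox to 0.143 and 0.167 with dTAG and Dox (-0.133, 95% interval -0.284 to 0.018, adjusted p = 0.169, where 21% of 410 X-linked genes were called). In WT XX cells the experiments moved in opposite ways, 0.233 to 0.314 and 0.464 to 0.268 (-0.0575, adjusted p = 0.856, where 0.488% of genes were called). In the ZFC3H1 line 1 clone, 8H, could be read at Phex, at 0.326 and 0.377 without dTAG (untreated and Dox libraries) and at 0.382 and 0.375 with it, and no test was made. The read numbers behind the ratios are unknown.

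**Figure D5:**
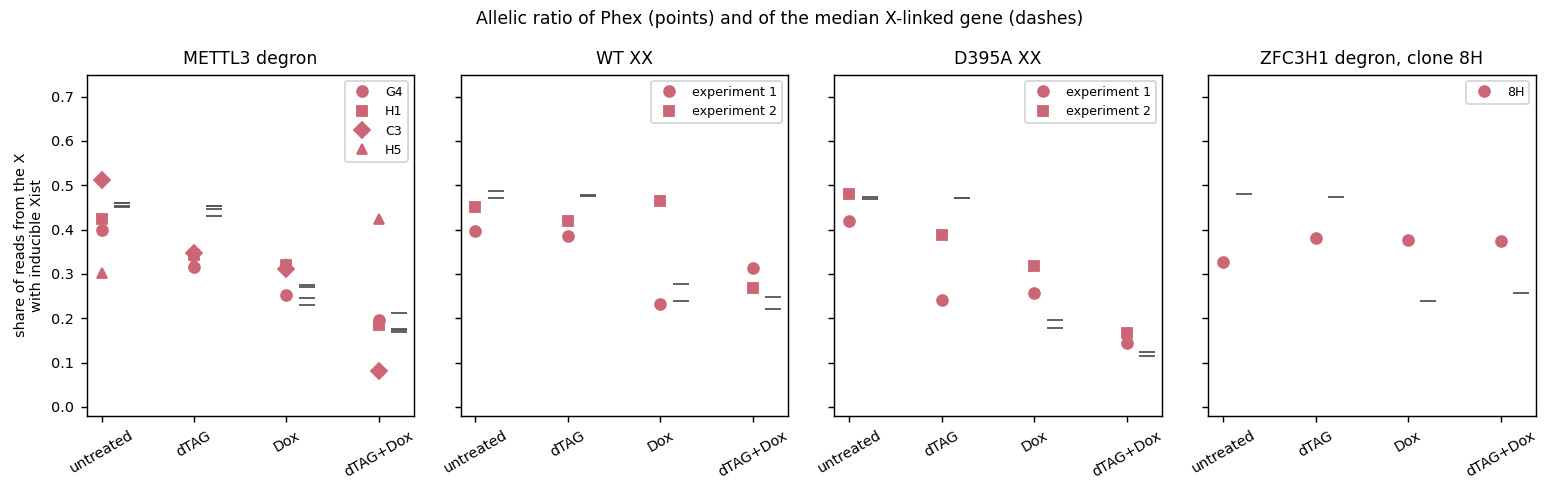
Allelic ratio of Phex (red points, 1 shape per clone or experiment) and of the median X-linked gene of the same table (dashes, 1 per library), as the share of reads from the X with inducible Xist, in 4 lines (clone 8H alone for ZFC3H1) and 4 treatments. The median ratio is lower with Dox in each panel, at 0.115 to 0.123 in D395A XX with dTAG and Dox, and Phex in clone 8H lies at 0.326 to 0.382 in every treatment.

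The genes around the 7 were measured in the same way. Casp2, a caspase gene that ends 4.19 kb before Clcn1 on the same strand, was at -0.30 in the METTL3 line, -0.30 in D395A XX (adjusted p = 0.164) and -0.40 in D395A XiO (adjusted p = 0.0635), where Clcn1 was at -1.50, -1.53 and -1.15. Oxsr1, a stress kinase gene that ends 6.74 kb before Slc22a13b-ps on the same strand, was at -0.37 in the METTL3 line, -0.31 in D395A XX (adjusted p = 0.00314) and -0.38 in D395A XiO (adjusted p = 0.0281). Casp2 and Oxsr1 were thus lower together with the gene after them, by less. St18, 228 kb upstream of Pcmtd1 on the same strand, was not lower. It was at 0.05 in the METTL3 line, 0.41 in D395A XX (adjusted p = 0.362) and 0.70 in D395A XiO (adjusted p = 0.598). St18 rose by 1.03 with ZCCHC8 loss (adjusted p = 2.40e-09) and by 0.82 with ZFC3H1 loss (adjusted p = 2.95e-04). Sntg1, after Pcmtd1, was at 0.26 in the METTL3 line, 0.55 in D395A XX (adjusted p = 0.11) and 0.85 in D395A XiO (adjusted p = 0.0152). Sms, upstream of Phex, was at -0.10 in D395A XX (adjusted p = 0.685), -0.24 in D395A XiO (adjusted p = 0.505) and 0.08 with ZCCHC8 loss (adjusted p = 0.0852), where Phex rose by 1.44. Dis3l, an exosome-related nuclease gene that starts 44.4 kb from Megf11 on the opposite strand, was at 0.55 in the METTL3 line and rose by 0.71 in D395A XX (adjusted p = 0.00206) and by 0.66 in D395A XiO (adjusted p = 0.0116). With YTHDC1 loss it was lower, as Megf11 was, at -0.34 (adjusted p = 0.00265) and -0.37 (adjusted p = 5.09e-04). Rab11a, after Megf11, and Utp18, after Car10, stood between -0.14 and 0.09 in these comparisons. Slc22a13, the parent of the pseudogene by name, had means of 0.0917 to 0.465 CPM without dTAG over the tables, while Slc22a13b-ps was at 2.34 CPM in its lowest library without dTAG. Reads of near-identical copies are uncertain, since only unique alignments were kept.

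Over the 40 pairs of libraries with and without dTAG of all lines, the difference of Car10 was most like that of Gm5622 (r = 0.88), that of Clcn1 most like those of Slc22a13b-ps and Pcmtd1 (both r = 0.88), and that of Megf11 opposite to that of Pcmtd1 (r = -0.92). The pairs include the METTL3 pairs that chose the genes, and pairs of a clone or table share its source, so the correlations are a description. Among the 12671 genes that passed the filter in every table, the closest to Car10 were Sybu (r = 0.92), Sdc2 (0.91) and Ptchd4 (0.91), and the closest to Megf11 were Col4a1 (0.95), Fmnl3 (0.94) and D630045J12Rik (0.94). Those for Gm5622 were Slc4a10 (0.91), Cadps2 (0.91) and Glmn (0.87), and those for Phex were 2410021H03Rik, 1700024B18Rik and 1700112E06Rik (all 0.87). Clcn1 was followed by Gpr126 (0.95), Csrp2 (0.94) and 2700049A03Rik (0.94), Slc22a13b-ps by Gpr126, Nfu1 and 2700049A03Rik (all 0.87), and Pcmtd1 by Mms22l, Luc7l2 and Pign (all 0.92).

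2410021H03Rik, Col4a1 and Gpr126 were picked for their correlations over the same pairs of libraries that gave the values below. Likeness to Phex, Megf11 and Clcn1 in these values therefore follows from the choice. The adjusted p-values do not test that likeness, and the values are a description. 2410021H03Rik had the signs of Phex in the METTL3 (-0.86), D395A XX (-0.83, adjusted p = 0.00954) and ZCCHC8 lines (1.47, adjusted p = 1.44e-09). It rose with ZFC3H1 loss (0.88, adjusted p = 0.00223). In D395A XiO it was at -0.63 and did not pass (adjusted p = 0.285). With YTHDC1 loss it was at 0.22 (adjusted p = 0.0684) and -0.08 (adjusted p = 0.445), where Phex fell. Col4a1, a basement membrane collagen gene, was like Megf11 higher in the METTL3 line (0.93) and in D395A XiO (0.91, adjusted p = 0.0045) and lower with YTHDC1 loss (-0.31 in both experiments, adjusted p = 2.32e-04 and 0.00181). In D395A XX it was at 1.00 and did not pass (adjusted p = 0.0656). Gpr126, an adhesion receptor gene, was at -1.20 in the METTL3 line and fell by 1.14 in D395A XX (adjusted p = 0.00284) and by 0.99 in D395A XiO (adjusted p = 0.00772).

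Of 33 relatives of the 7 genes (other carbonic anhydrases, EGF-repeat receptors, neprilysin-type peptidases, chloride channels, organic ion transporters and isoaspartate methyltransferases) 24 to 28 passed the filter. In both WT lines 0 rose and 0 fell, as 0% of all genes did. In D395A XX, where 17.7% of all genes were called, 4 rose (Slc22a5, Slc22a4, Scarf1 and Ece1) and 0 fell of 25, with a median log2 change of 0.11 beside 0.09 over all genes, and in D395A XiO, where 5.85% were, 0 rose and Pcmt1 fell (-0.36, adjusted p = 0.0311) of 25. With ZCCHC8 loss 8 rose and 8 fell of 28, where 53.5% of all genes were called. With YTHDC1 loss 4 rose and 7 fell of 28 in the shared table (32.9% of all genes) and 3 rose and 7 fell of 27 in the separate one (31.6%), and with ZFC3H1 loss none passed, where 9.9% of all genes did.

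Of the writer genes 8 were in the tables. Wtap fell in D395A XX (-0.62, adjusted p = 0.00153), where 17.7% of all genes were called, and the other 7 did not pass there. None of the 8 passed in the WT lines, where 0% of all genes were called. In D395A XiO, where 5.85% of all genes were called, none passed either, and Wtap was at -0.31 (adjusted p = 0.0811). With YTHDC1 loss a call is common. In the shared table, where 32.9% of all genes were called, Cbll1 (0.26, adjusted p = 0.0071) and Mettl3 (0.15, adjusted p = 0.0285) rose. 1110037F02Rik, the name of Virma in the tables, rose there as well (0.29, adjusted p = 5.97e-05). In the separate table, where 31.6% of all genes were called, Cbll1 (0.17, adjusted p = 0.0348) and 1110037F02Rik (0.31, adjusted p = 4.43e-05) rose. Mettl3 was at 0.06 there (adjusted p = 0.475). With ZCCHC8 loss 5 of 8 were called, where 53.5% of all genes were: Rbm15b rose (0.49, adjusted p = 1.02e-05) and Zc3h13 (-0.30), Mettl14 (-0.25), 1110037F02Rik (-0.14) and Mettl3 (-0.13) fell. With ZFC3H1 loss Rbm15 rose (0.62, adjusted p = 0.00172), where 9.9% of all genes were called. The degron acts on protein, so RNA does not check it: Mettl3 RNA stood at 16.6 to 38.9 CPM in the METTL3 line with and without dTAG. With Dox the Xist level was 2039 to 4189 CPM in the METTL3 line and 4496 to 6601 CPM with dTAG and Dox. Of 8 stem cell markers 7 were present, with sums of 788 to 2247 CPM over all libraries and Sox2 listed at 0, and 10 feeder markers summed to 17.3 to 61.0 CPM.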

How the data were processed

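ChrRNA-seq libraries were grouped by line, clone, treatment and experiment as labelled. Per the study and the labels, the authors removed ribosomal reads (Bowtie2), aligned the rest with STAR to mm10 with variant sites masked, and counted reads by strand over whole transcripts with featureCounts. The deposited gene values are CPM. The deposited allelic ratios are a fraction of variant reads, whose depth is unknown. CPM steps gave back whole reads (100% within 0.1 of a step, checked up to 200 reads), 8.58 to 34.39 M per library. In all 24 columns were not used because they match no sample here, and 0 of 56 replicate pairs were identical.

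Genes averaging 1 CPM or more in a table were tested on log2(CPM + 1), a scale that understates changes of low genes, with limma 3.58.1 (trend, 2 arms averaged, clone as a block in degron lines, no block in transgene lines) in R 4.3.3, with Benjamini-Hochberg adjustment over all genes and a threshold of 0.05. Clones pair the degron libraries because the same clone received each treatment. Experiment numbers pair the transgene libraries because, per the study, the cells of an experiment were split from a common batch (lowest correlation of same-numbered libraries 0.43 to 0.87). Ratios were fitted over X-linked genes, without ZFC3H1, where 1 clone was informative at Phex. Alternatives were a pseudocount of 0.1, no filter, median-ratio scaling, each Dox arm, edgeR 4.0.16 on recovered reads, the block, and leaving out replicates. Fits were also run on simulated counts with the same dispersion for all genes and no clone or experiment effects. That run therefore cannot show how such effects bear on the p-values. The genes named were the 7, their neighbours, the 3 most alike, relatives, writer genes and 5 marker lists. The genes and lists were chosen with earlier results of these data known.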

Additional observations from a re-analysis of the deposited data

Results flagged for a closer look

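Among 60 groups of 4 or more libraries that were examined, 3 held a value far from the others, where chance gives about 1 in 20. Car10 was at 8.74 CPM in METTL3 clone C3 with dTAG and Dox, while the other clones were at 20.5 to 21.3 CPM. Gm5622 was at 0.933 CPM in YTHDC1 clone Y12H with Dox in experiment 2, while the others were at 1.73 to 1.78 CPM. The allelic ratio of Phex was 0.253 in METTL3 clone G4 with Dox, while the others were at 0.312 to 0.323.

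By the adjusted p of limma without a block, the dTAG effect differed between D395A and WT XX cells for Car10 (3.19 on the log2 scale), Gm5622 (1.73), Megf11 (1.71), Slc22a13b-ps (-0.92) and Pcmtd1 (-0.46), where 2.63% of all genes were called. Between D395A and WT XiO cells it differed for Car10 (3.55) and Gm5622 (1.98), where 0.0297% of all genes were called. With the experiment as a replicate block the dTAG effect differed for all 7 genes in XX and in XiO cells, where 28.2% and 28.7% of all genes were called. By a contrast added after the values were seen, it differed between the ZCCHC8 and YTHDC1 lines for Phex (1.84), Gm5622 (-0.84) and Car10 (-0.76). In that contrast 43.9% of all genes were called, so a call is common there.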

How the results depend on the processing

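Of 830 recomputed values of single genes 672 were counted as kept, 103 lost and 11 gained the threshold, 18 without a test moved and 26 reversed. Kept meant the same direction and side of the threshold or, without a test, a small shift. Outside the METTL3 line, changes of sign without a test in genes not called were not counted as reversed. Causes were not tested. Depth limits Gm5622 most, and transgene lines have 2 experiments each. Leaving out a transgene experiment, or a YTHDC1 or ZCCHC8 clone of their shared table, leaves a single library per group of that line. Counts from such fits cannot tell lost replication from a call that rests on a single experiment or clone.

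In D395A XX cells 426 genes were called in the arm with Dox, 803 in that without and 6581 with a replicate block, and leaving out an experiment gave 0 to 1 genes and 0 to 0 of 7. For D395A minus WT in XX cells the arms called 0 and 0 of 7 and 2 (with Dox) and 1 genes, the replicate block 7 of 7 and 3772 genes, and leaving out an experiment 0 to 5 of 7 and 0 to 431 genes. In D395A XiO cells the arms called 2 (with Dox) and 3 of 7 and 7 and 54 genes, the replicate block 6738 genes, and leaving out an experiment 0 of 7 and 0 genes. For D395A minus WT in XiO cells a pseudocount of 0.1 and edgeR each called 1 of 7 and 1 gene, no filter 11 genes, the arms 0 of 7 and 0 genes, the replicate block 7 of 7 and 3855 genes, and leaving out an experiment 0 of 7 and 0 genes. In the transgene lines the block ended no call of the 7 genes.

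For YTHDC1 in the shared table the arms called 3 (with Dox) and 2 of 7 and 2152 and 2634 genes, no replicate block 3 of 7 and 2213 genes, and leaving out a clone 3 of 7 and 1408 to 2307 genes. In the separate table no filter called 3 of 7, the arms 3 and 3 of 7 and 2012 and 2437 genes, and no replicate block 3 of 7 and 374 genes. For ZCCHC8 the arm without Dox called 3 of 7. For ZCCHC8 minus YTHDC1, added after the values were seen, the arm without Dox called 3475 genes and no replicate block 3746. For ZFC3H1 no filter called 831 genes, the arms 427 (with Dox) and 291, and no replicate block 0. Leaving out a clone of the separate YTHDC1 table or of ZFC3H1 gave values without a test.

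Reversed values had not passed the threshold in the fits reported, nor where reversed, except Gm5622 without ZCCHC8 clone Z4F (-0.36). In WT XX cells Slc22a13b-ps was at 0.19 with Dox, and leaving out an experiment gave -0.19 to 0.18 for Slc22a13b-ps, -0.12 to 0.48 for Car10 and -0.196 to 0.081 for the ratio of Phex. In WT XiO cells the arm with Dox gave Megf11 -0.04, Gm5622 0.11 and Pcmtd1 -0.02, that without Dox Clcn1 0 and Slc22a13b-ps -0.02, edgeR Gm5622 0.06 and Pcmtd1 0, and median-ratio scaling Pcmtd1 -0.01. Leaving out a WT XiO experiment gave -0.21 to 0.19 for Gm5622, -0.04 to 0.07 for Pcmtd1 and -0.10 to 0.15 for Slc22a13b-ps. Clcn1 was at 0 with Dox in the shared YTHDC1 table, and Gm5622 at -0.36 to 0.50 without a ZCCHC8 clone. For ZCCHC8 minus YTHDC1 Megf11 was at 0.07 with Dox, Clcn1 at 0.01 and Slc22a13b-ps at 0.08 without Dox, and leaving out a clone gave -0.23 to 0.02 for Megf11 and -0.11 to 0.08 for Slc22a13b-ps. For ZFC3H1 Gm5622 was at 0.08 with Dox, and Megf11 at 0.19 and Pcmtd1 at -0.01 without Dox. Some values without a test also changed sign. Leaving out a ZFC3H1 clone gave -0.17 to 0.41 for Clcn1, -0.14 to 0.32 for Slc22a13b-ps and -0.14 to 0.18 for Pcmtd1. Leaving out a clone of the separate YTHDC1 table gave -0.28 to 0.01 for Slc22a13b-ps.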
